A study of Mus musculus with 6 samples.

Results

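The genes described here are 10 genes of heparan sulfate biology that were named by symbol: the glypicans *Gpc1*, *Gpc3*, *Gpc4* and *Gpc6*, the syndecans *Sdc1*, *Sdc2*, *Sdc3* and *Sdc4*, and the sulfatases *Sulf1* and *Sulf2*. They are 10 of the 55414 genes in the count table, and all 10 passed the filter on low counts that 16353 genes passed. The 6 mRNA libraries came from mouse embryos at E10.5, 3 with an intact *mir-302* locus (WT) and 3 without it (KO), from crosses of *mir-302*+/- parents. All embryos carried *Pdx1-Cre* and a Cre-dependent tdTomato reporter, and tdTomato-labelled cells of the trunk were sorted. The KO is therefore a loss in the whole embryo, whereas the sort follows the *Pdx1-Cre* lineage, which includes descendants of any trunk cell that had expressed the Cre. One library code of unstated meaning is common to 2 libraries of opposite genotype, WT replicate 2 and KO replicate 1. The labels do not say how many embryos went into a library or whether replicates came from separate litters, so the p-values below measure the spread between these libraries.

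Heparan sulfate proteoglycans are core proteins that carry long, sulfated sugar chains at the cell surface or in the matrix. Glypicans are held to the membrane by a lipid anchor, whereas syndecans span it. The chains bind Wnt, FGF, BMP and Hedgehog ligands, and their sulfation pattern sets which ligands they hold. *Sulf1* and *Sulf2* encode secreted enzymes that remove 6-O-sulfate groups from finished chains, which is known to alter Wnt and FGF signalling. In the developing gut and pancreas, such ligands pass between the endodermal epithelium and the surrounding mesenchyme.

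Library totals ran from 17352498 to 26634523 counts. The progenitor gene *Pdx1* was present at 73.1 to 108 CPM (read counts scaled to library size with TMM factors). The 12 progenitor markers summed to 1052 to 1331 CPM and the 8 epithelial markers to 3946 to 4520 CPM. Of the progenitor markers 6 were above 0 and 6 below on the log2 scale, with a median of -0.0081. Of the epithelial markers 4 were above and 4 below, with a median of -0.036. Within these lists edgeR called no gene. DESeq2 called *Gata4*, *Gata6* and *Krt19* higher in KO, beside 4.22% of all genes. Their edgeR log2 fold changes were 0.63, 1.33 and 0.54. They did not overlap between genotypes, and 8.36% of all tested genes lay wholly higher in KO. Markers of other cells varied more: the summed level of 15 mesenchyme markers ran from 59.3 CPM in KO replicate 2, where 7 of the 15, *Col1a1* and *Col3a1* among them, had no counts, to 1156 CPM in KO replicate 1. The 8 endothelial markers summed to 1.71 CPM in KO replicate 2 and to between 20.2 and 43.6 CPM in the other libraries. The 9 blood markers summed to between 0.798 and 16110 CPM, with the highest level in WT replicate 3. The 7 liver markers summed to between 635 and 2012 CPM. The 9 neural markers summed to between 50.4 and 170 CPM. WT replicate 1 and KO replicates 2 and 3 had Y-linked expression and the other 3 libraries had almost none. On this basis alone they are called male and female libraries below. The labels give no sex, and a library with Y-linked expression could hold embryos of both sexes. The genotype could not be checked in these counts, since the genes of the *mir-302* cluster had no counts beyond 2 for *Mir302d* in KO replicate 3.

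The mature miR-302 forms b, c and d are shown because their seeds decide which transcripts could pair with them. They lie on the plus strand of chromosome 3 in GRCm38.p6 (RefSeq), *mir-302b* at chr3:127545275-127545297, *mir-302c* at chr3:127545406-127545427 and *mir-302d* at chr3:127545665-127545687. Capitals mark bases 2 to 8, the seed.
mmu-miR-302b-3p: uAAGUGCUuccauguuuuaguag
mmu-miR-302d-3p: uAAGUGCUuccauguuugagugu
mmu-miR-302c-3p: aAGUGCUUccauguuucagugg
The cluster also holds miR-367-3p, whose seed is AUUGCAC and for which no matches were searched. Of the miRNAs shown, the first pair share the seed AAGUGCU. The mature form listed for *mir-302c* starts 1 base later, so its bases 2 to 8 read AGUGCUU. As for miR-367-3p, no matches to that seed were searched.

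A match to the seed AAGUGCU was found in the 3′UTR of 1 of the 10 genes, *Sdc1*. The letters searched were AGCACTTA, GCACTTA and AGCACTT on the transcript strand, the longer one containing both shorter ones, and 20.6% of the 13768 tested genes with a 3′UTR held at least one of them. The *Sdc1* match spans bases 397 to 404 of a 3′UTR of 1908 bases, at chr12:8792204-8792211 on the plus strand of GRCm38 (GENCODE M21), and is in capitals with 8 bases on each side.
*Sdc1* site: ccagccatAGCACTTAcccataga
A match is a description of the sequence and does not show pairing. The study lists *Sulf2* among predicted *mir-302* targets, and the letters searched were not in the longest annotated 3′UTR, the one searched here.

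*Gpc3* was by far the most abundant of the 10, and its level was lower in all KO libraries. *Sdc3*, the least abundant of them in WT, was higher in all KO libraries, as were *Gpc1* and *Sulf2*. None of the 10 passed edgeR's quasi-likelihood test at a Benjamini-Hochberg adjusted p under 0.05, in a fit that called 0.0% of all tested genes. At an unadjusted p under 0.05, 3 members were higher in KO and 1 was lower, beside 6.42% and 3.97% of all tested genes (10.4% in both directions). DESeq2, the tool that the study used, called the same 4 genes, *Sdc3*, *Gpc1* and *Sulf2* higher and *Gpc3* lower. It called 4.22% of 14353 genes higher and 0.648% lower (4.87% in both directions). The median log2 fold change of the 10 genes was 0.0086, with 5 above and 5 below 0, and that of all tested genes was -0.025.

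**Figure D1:**
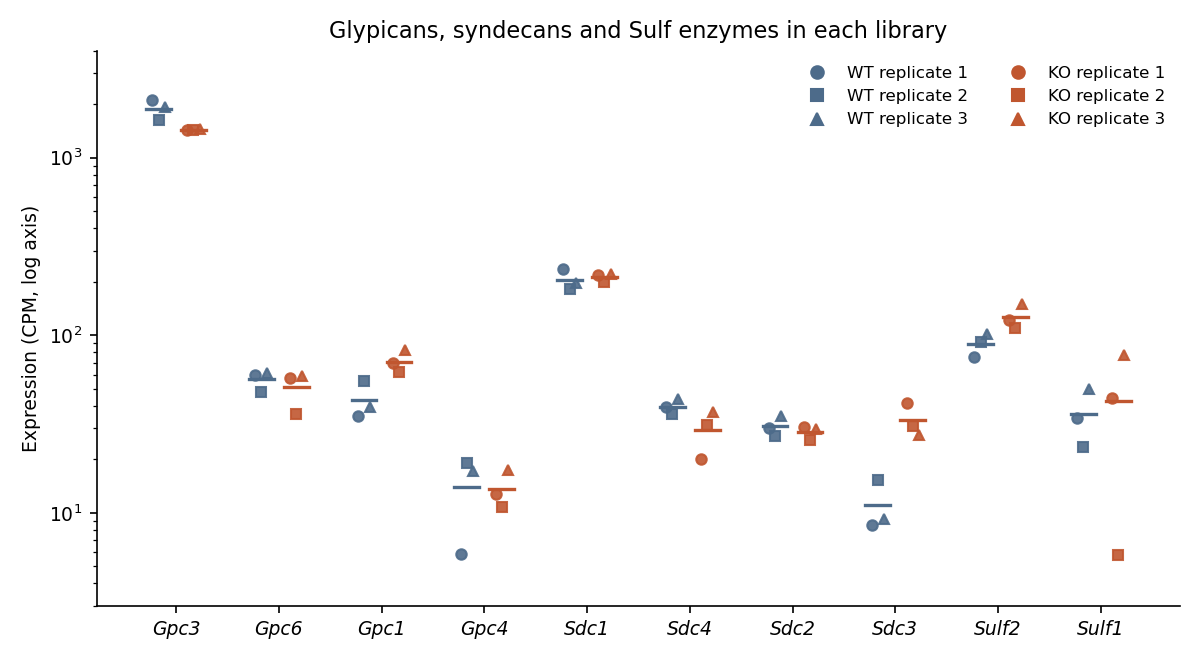
Expression of the 10 genes in CPM on a log axis, with 1 point per library, WT and KO side by side and a bar at each group mean. *Gpc3* lies at 1432 CPM or more in every library, the KO points of *Sdc3* lie at 27.4 CPM or more and its WT points at 15.3 CPM or less, and the lowest KO point of *Sulf1* is 5.81 CPM.

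Among the glypicans, *Gpc3* on chromosome X is known to restrain growth, and its loss in people causes an overgrowth syndrome. It was at 2112, 1621 and 1939 CPM in WT replicates 1 to 3, and at 1435, 1432 and 1444 CPM in KO replicates 1 to 3. The groups did not overlap, and the KO libraries lay much closer together than the WT libraries. The means were 1891 ± 249 CPM for WT and 1437 ± 6.57 CPM for KO (SD, n = 3 each). The log2 fold change was -0.40 (SE 0.10), with an edgeR p of 0.00635 before and 0.197 after adjustment, and DESeq2 gave an adjusted p of 0.0431. Leaving out each library in turn kept the difference between -0.48 and -0.31. *Gpc3* is also expressed in fetal liver, and the liver marker sums ran from 771 to 1924 CPM in WT and from 635 to 2012 CPM in KO, where *Gpc3* stayed within 1432 to 1444 CPM. The part of cell makeup in the difference was not tested, and in sorted bulk samples fewer cells of a type and less RNA per cell cannot be told apart.

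*Gpc1* on chromosome 1, a glypican known as a co-receptor for FGF ligands, went the other way. Its level was 35.3, 55.3 and 39.3 CPM in WT and 69.5, 61.8 and 82.1 CPM in KO. No WT library reached the level of any KO library, although WT replicate 2 and KO replicate 2 were close. The mean was 43.3 ± 10.6 CPM for WT and 71.1 ± 10.2 CPM for KO (SD, n = 3 each), which is 0.72 (SE 0.19) on the log2 scale. The edgeR p was 0.00672 before and 0.201 after adjustment, and the DESeq2 adjusted p was 0.00829.

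*Gpc6* on chromosome 14, which is known for its role in the growth of bone, was at 60.0, 48.0 and 61.2 CPM in WT and at 57.6, 36.2 and 59.2 CPM in KO. The groups overlapped, with the lowest value in KO replicate 2. The difference on the log2 scale was -0.15, with a 95% interval from -0.62 to 0.33. *Gpc4*, the neighbour of *Gpc3* on chromosome X, was at 5.84, 19.0 and 17.3 CPM in WT and at 12.8, 10.8 and 17.4 CPM in KO. Its WT libraries spanned the whole KO range, and the lowest of all was WT replicate 1. Its log2 fold change of -0.037 had a 95% interval from -1.03 to 0.96, and no difference was detectable at this spread.

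The remaining glypicans were scarce. *Gpc2* averaged 3.20 ± 0.680 CPM over the WT libraries and 2.28 ± 0.642 CPM over the KO libraries, and *Gpc5* 0.856 ± 0.387 and 0.652 ± 0.264 CPM (SD, n = 3 each). Their log2 fold changes were -0.49 and -0.38, and neither passed a test.

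Of the syndecans, *Sdc3*, on chromosome 4 and best known from the nervous system, differed most. The WT libraries had 8.53, 15.3 and 9.22 CPM and the KO libraries 41.4, 30.7 and 27.4 CPM. The lowest KO value was above the highest WT value, that of WT replicate 2. The WT mean was 11.0 ± 3.73 CPM and the KO mean 33.1 ± 7.32 CPM (SD, n = 3 each), a ratio of 3.01. On the log2 scale this is 1.59 (SE 0.27), and *Sdc3* ranked 63 by edgeR p among all 16353 tested genes. Its p was 0.000564 before and 0.132 after adjustment, and the DESeq2 adjusted p was 9.24e-07. Without WT replicate 2 the log2 fold change was 1.92 and the edgeR adjusted p was 0.0320. Without any other single library the edgeR adjusted p of *Sdc3* lay between 0.101 and 0.448. WT replicate 2 was the WT library nearest to KO for *Sdc3*, and leaving it out raised the calls over all genes from 0 to 217. The neural markers, 4 of 9 of which passed the filter, summed to 50.4 to 139 CPM in WT and to 68.5 to 170 CPM in KO and were highest in KO replicate 2, whereas *Sdc3* was highest in KO replicate 1, and the part of neural cells was not tested.

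*Sdc1* on chromosome 12, the syndecan of epithelia and the gene with the seed match, was at 237, 183 and 197 CPM in WT and at 219, 199.5 and 222 CPM in KO. Its WT and KO ranges overlapped, and the log2 fold change of 0.054 (SE 0.11) had a 95% interval from -0.20 to 0.31. *Sdc2* on chromosome 15, known mainly from mesenchyme and vessels, was at 30.1, 26.9 and 35.0 CPM in WT and at 30.5, 25.9 and 29.7 CPM in KO. Its ranges overlapped too, with a log2 fold change of -0.097 and a 95% interval from -0.44 to 0.25.

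*Sdc4* on chromosome 2, a broadly expressed syndecan of focal adhesions, was at 39.3, 35.9 and 43.8 CPM in WT and at 20.0, 31.3 and 36.8 CPM in KO. KO replicate 1 was far below the rest, and KO replicate 3 was above WT replicate 2, so the groups overlapped. The log2 fold change was -0.44 (SE 0.23), with an edgeR p of 0.0937 before and 0.587 after adjustment and a DESeq2 adjusted p of 0.486. No call was made for it by either tool. Without KO replicate 1 the log2 fold change was -0.21, and without any other single library it lay between -0.60 and -0.32.

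**Figure D2:**
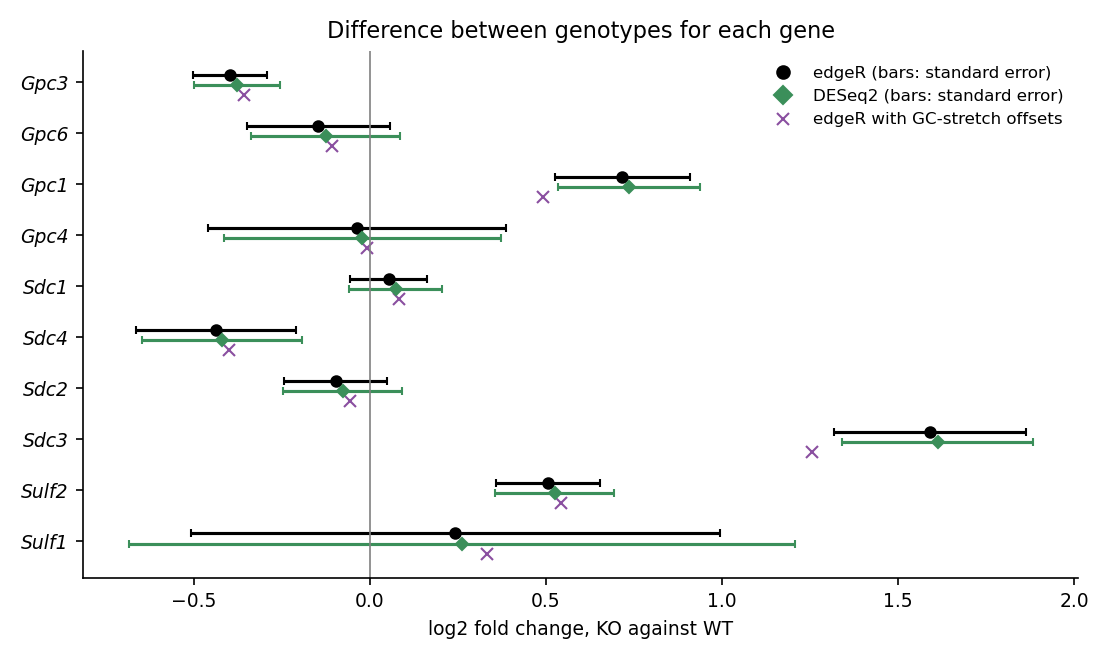
Log2 fold change, KO against WT, for each gene by edgeR and DESeq2, with bars of 1 standard error, and by edgeR with offsets for the GC-rich stretch. *Sdc3* stands at 1.59, *Gpc1* at 0.72, *Sulf2* at 0.51 and *Gpc3* at -0.40 by edgeR, and *Sulf1* has the widest bar.

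The sulfatases differed in how steady they were. *Sulf2*, on chromosome 2, was at 75.3, 91.8 and 101 CPM in WT and at 121, 110 and 149.5 CPM in KO, without overlap between the genotypes. The means were 89.4 ± 13.0 and 127 ± 20.4 CPM (SD, n = 3 each), and the log2 fold change was 0.51 (SE 0.15). The edgeR p was 0.0105 before and 0.240 after adjustment, and the DESeq2 adjusted p was 0.0415. *Sulf2* is one of the predicted targets that the study picked from these same libraries, so its direction here is not independent evidence.

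*Sulf1*, on chromosome 1, was at 34.3, 23.4 and 50.0 CPM in WT and at 44.2, 5.81 and 77.4 CPM in KO. The KO libraries alone spanned the whole WT range, with a 13.3-fold distance between KO replicates 2 and 3. The log2 fold change was 0.24 (SE 0.75), with a 95% interval from -1.52 to 2.01. Without KO replicate 2 it was 0.77, and without KO replicate 3 it was -0.48. *Sulf1* is a gene of mesenchyme in many organs, and its level followed the mesenchyme marker sums at the low end, where KO replicate 2 had the least of both and WT replicate 2 the next least. Those sums ran from 197 to 1105 CPM in WT and from 59.3 to 1156 CPM in KO. *Gpc6* was also lowest in KO replicate 2, at 36.2 CPM, but *Sulf2* was not, at 110 CPM. *Sulf2* therefore exceeded *Sulf1* by 18.9 times in CPM in KO replicate 2, and by 1.93 to 3.92 times in the other 5 libraries. The part of mesenchymal cells in these values was not tested.

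**Figure D3:**
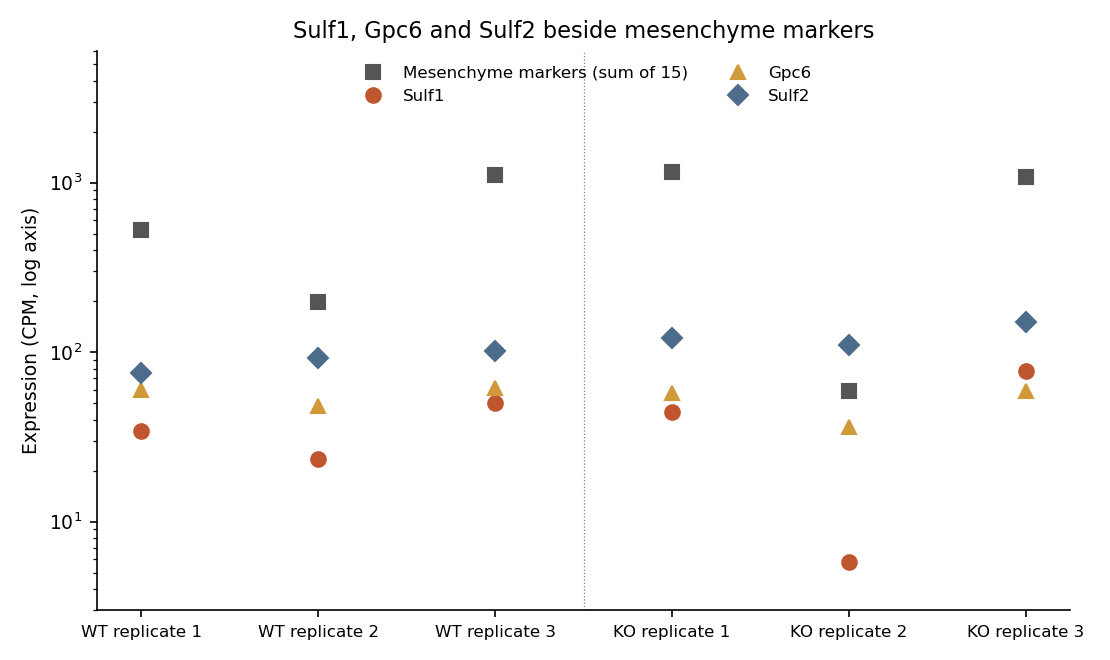
CPM of *Sulf1*, *Gpc6* and *Sulf2* and the summed CPM of 15 mesenchyme markers in each library, on a log axis. *Sulf1* drops to 5.81 CPM and the markers to 59.3 CPM in KO replicate 2, where *Sulf2* stays at 110 CPM.

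To compare genes with each other, CPM was divided by exon length in kb (GENCODE M21). In WT, *Gpc3* led with 703 ± 92.6 CPM per kb, followed by *Sdc1* with 54.0 ± 7.37, *Sdc4* with 15.6 ± 1.57 and *Sulf2* with 15.2 ± 2.22 (SD, n = 3 each). *Gpc6*, *Sdc2* and *Gpc1* lay between 8.39 and 8.78 CPM per kb, and *Gpc4*, *Sulf1* and *Sdc3* came last with 5.30, 3.18 and 1.84 CPM per kb. Only *Gpc3* from *Sdc1*, *Sdc1* from *Sdc4* and *Sulf2* from *Gpc6* were separated without overlap among neighbours in the WT order. In KO the order began with *Gpc3* at 534 ± 2.44, *Sdc1* at 56.0 ± 3.20, *Sulf2* at 21.6 ± 3.47 and *Gpc1* at 13.8 ± 1.99 CPM per kb (SD, n = 3 each). The neighbours among these 4 did not overlap, and all later neighbours did. *Sdc3* stood at 5.53 CPM per kb in KO, in eighth place, and *Sulf1* came last with 3.76.

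The core protein transcripts in sum were fewer in KO, and *Gpc3* made up that difference. The 8 core protein genes summed to 891, 700 and 825 CPM per kb in WT and to 641, 631 and 654 in KO, without overlap. Without *Gpc3* the sum was 103 ± 4.42 CPM per kb in WT and 108 ± 9.31 in KO (SD, n = 3 each), and these ranges overlapped. The share of *Gpc3* in the summed core protein level was 88.1%, 86.1% and 87.4% in WT and 83.1%, 84.3% and 82.1% in KO. Among glypicans other than *Gpc3*, *Gpc1* held 37.2%, 42.3% and 32.2% of the summed level in WT and 49.4%, 55.2% and 50.2% in KO. Neither of these shares overlapped between genotypes.

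The syndecans in sum were level, at 80.1 ± 7.70 CPM per kb in WT and 81.2 ± 4.32 in KO (SD, n = 3 each). *Sdc1* held 64.4% to 71.0% of that sum in WT and 67.9% to 71.1% in KO. The share of *Sdc3* was 1.63%, 3.54% and 1.91% in WT and 8.54%, 6.64% and 5.33% in KO. The share of *Sdc4* was 17.6%, 19.5% and 21.4% in WT and 9.72%, 15.9% and 16.8% in KO. The *Sdc4* share was thus lower in every KO library, although its own CPM overlapped. With 3 libraries against 3, an exact two-sided permutation test cannot give a p below 0.1, and none is given for these shares.

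**Figure D4:**
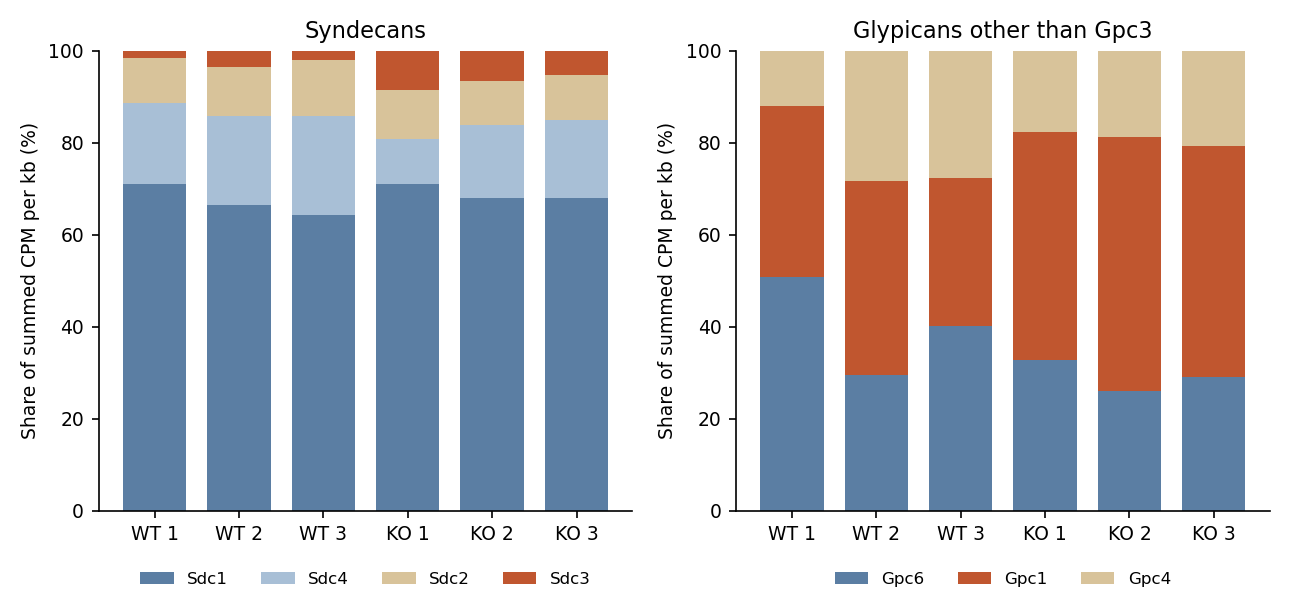
Share of each gene in the summed CPM per kb, in each library, for the 4 syndecans and for the glypicans *Gpc1*, *Gpc4* and *Gpc6*. *Sdc3* takes 1.63% to 3.54% of the syndecan sum in WT and 5.33% to 8.54% in KO, and *Gpc1* takes 32.2% to 42.3% of the sum of these glypicans in WT and 49.4% to 55.2% in KO.

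The 4 genes whose genotypes did not overlap, 3 higher and 1 lower of 10, stand beside 8.36% and 7.99% of all tested genes that lay wholly above or wholly below. Because these groups did not overlap, their directions had to be the same in the libraries called male and female and under both leading digits of the library code. Their ratios could differ only in size, and the meaning of the digits is not stated. For *Sdc3* the log2 ratio of KO to WT was 1.75 in female and 1.77 in male libraries, for *Gpc1* 0.56 and 1.03, for *Sulf2* 0.33 and 0.79, and for *Gpc3* -0.31 and -0.55. Under digits 8 and 9 it was 1.80 and 1.65 for *Sdc3*, 0.62 and 0.87 for *Gpc1*, 0.54 and 0.36 for *Sulf2*, and -0.38 and -0.43 for *Gpc3*. Each such ratio rests on 1 library on one side and was not tested. *Gpc4* was lower in KO among female libraries, at -0.50, and higher among male ones, at 1.27, where the WT side is replicate 1 alone.

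A property of the transcripts moved with genotype across all genes in these libraries. Of the 3278 tested genes with a 200-base stretch of at least 75% GC, 23.9% lay wholly higher in KO and 4.09% wholly lower, and their median log2 fold change was 0.14. Of the other 13034 genes, 4.47% lay wholly higher and 8.93% wholly lower, with a median of -0.049. Among the 10 genes, *Sdc3* and *Gpc1* had such a stretch, with 81.5% and 79.0% GC at most. Of the others, *Sdc1* had 71.5%, *Gpc4* 71.0%, *Gpc6* 68.5%, *Gpc3* 68.0%, *Sulf2* 65.5%, *Sdc2* and *Sdc4* 64.0% and *Sulf1* 58.5%. Among these others, only *Gpc3* and *Sulf2* did not overlap between genotypes.

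The richest 200 bases of *Sdc3* have 120 of their bases in the 5′UTR and are not shown. Shown in their place are the 200 bases with the most GC within the coding sequence of *Sdc3* and of *Sdc2*, a syndecan that overlapped between genotypes. Both lie below 75% GC, and they are the highest and the lowest of the members in this measure. *Sdc1* and *Sdc4*, syndecans that also overlapped, had 64.5% and 64.0% GC in theirs. Capitals mark CpG pairs, and both stretches shown come from the GRCm38 genome with GENCODE M21 exons. The *Sdc3* stretch, coding bases 2 to 201 of 1329, spans 2 exons at chr4:130792672-130816913 on the plus strand, with 74.5% GC and 26 CpG. The *Sdc2* stretch, coding bases 3 to 202 of 609, spans 3 exons at chr15:32921248-33023678 on the plus strand, with 50.0% GC and 6 CpG.
*Sdc3*: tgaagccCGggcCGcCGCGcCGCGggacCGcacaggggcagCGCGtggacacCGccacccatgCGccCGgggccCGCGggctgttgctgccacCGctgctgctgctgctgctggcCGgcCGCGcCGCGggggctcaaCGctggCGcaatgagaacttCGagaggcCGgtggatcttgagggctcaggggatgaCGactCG
*Sdc2*: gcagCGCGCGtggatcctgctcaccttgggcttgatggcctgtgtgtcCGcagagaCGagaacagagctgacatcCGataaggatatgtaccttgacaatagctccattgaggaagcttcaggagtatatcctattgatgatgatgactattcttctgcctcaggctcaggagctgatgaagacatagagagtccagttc
With offsets in the edgeR fit for this property, the log2 fold change of *Sdc3* was 1.25 in place of 1.59, with an unadjusted p of 0.000645. That of *Gpc1* was 0.49 in place of 0.72, that of *Sulf2* 0.54 in place of 0.51, and that of *Gpc3* -0.36 in place of -0.40. The unadjusted p values of these 3 were 0.0214, 0.00660 and 0.0113. After adjustment the edgeR p with the offsets was 0.160 for *Sdc3*, 0.367 for *Gpc1*, 0.237 for *Sulf2* and 0.287 for *Gpc3*. The fit with offsets called 0 genes. What part of the *Sdc3* and *Gpc1* differences goes with the GC-rich stretch beyond these offsets was not tested.

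Around the 10 genes, 90 further genes of the heparan sulfate pathway and its neighbours were listed by role, and 84 passed the filter. No gene among the 84 was called by edgeR. At an unadjusted p under 0.05, 6 were higher in KO, which is 7.14%, and 4 were lower, which is 4.76%, close to the shares of all tested genes given above. DESeq2 called 1 of them, *Hspg2*. Their median log2 fold change was 0.046.

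Of the 11 tested genes for other core proteins, 9 were below 0, with a median log2 fold change of -0.34. This median rested on few libraries: it was 0.082 without KO replicate 2, where 8 of these 11 genes were lowest, -0.079 without WT replicate 2 and -0.16 without WT replicate 1. It was -0.071 with the leading digit of the library code as a term and -0.10 with sex as a term. *Hspg2*, which encodes the basement membrane proteoglycan perlecan, was at 39.7, 46.6 and 53.7 CPM in WT and at 26.0, 20.5 and 35.4 CPM in KO. No KO library reached the level of any WT library, with a log2 fold change of -0.77 (SE 0.22), an edgeR p of 0.00920 before and 0.227 after adjustment, and a DESeq2 adjusted p of 0.0193. *Agrn*, which encodes agrin, another basement membrane proteoglycan, was at 62.3, 92.9 and 68.3 CPM in WT and at 117, 87.2 and 140 CPM in KO. Its groups overlapped through WT replicate 2 and KO replicate 2, with a log2 fold change of 0.62, an edgeR p of 0.0191 before and 0.320 after adjustment, and a DESeq2 adjusted p of 0.0511.

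Of the 12 genes that build the linker and polymerise the chain, 9 were above 0 and 3 below, with a median of 0.078 that was 0.17 without KO replicate 2 and 0.028 with the GC offsets. *Fam20b*, the kinase that phosphorylates the linker xylose, averaged 46.2 ± 4.85 CPM over the WT libraries and 62.3 ± 7.86 CPM over the KO libraries (SD, n = 3 each) without overlap. Its log2 fold change was 0.43, and -0.016 with the GC offsets, its stretch having 84.5% GC. *Extl3*, which helps to start the heparan sulfate chain, was at 78.2, 74.6 and 80.0 CPM in WT and at 56.5, 54.6 and 73.7 CPM in KO, with a log2 fold change of -0.33 and no overlap. Neither was called by either tool.

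Of the 12 tested genes for chain modification, 10 were above 0, with a median log2 fold change of 0.32 that was 0.015 with the GC offsets. *Ndst3*, an N-deacetylase and N-sulfotransferase, had 6, 1 and 1 counts in WT and 30, 9 and 16 in KO. The log2 fold change was 2.62 (SE 0.73), on counts so low that the fold is uncertain. The edgeR p was 0.00838 before and 0.218 after adjustment. *Ndst3* passed the filter on low counts only through its KO libraries. The filter thus fixed its direction and the lack of overlap, and neither these nor the p are support for a difference. Its relative *Ndst4* had 13, 30 and 40 counts in WT and 13, 11 and 19 in KO, with a log2 fold change of -0.98. *Hs6st1* and *Hs6st2*, named after their values were seen because they add the 6-O-sulfate that the Sulf enzymes remove, had log2 fold changes of 0.35 (SE 0.31) and 0.34 (SE 0.65). *Hs6st2* was at 11.5, 7.37 and 24.96 CPM in WT and at 24.4, 5.01 and 26.3 CPM in KO, lowest in KO replicate 2 like *Sulf1*. *Hs6st1* was highest in that library, at 4.34, 3.91 and 5.39 CPM in WT and at 5.33, 8.09 and 3.97 CPM in KO. With the GC offsets the log2 fold change of *Hs6st1* was -0.16 and that of *Hs6st2* 0.37.

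Precursor supply, with 5 of 12 genes above 0 and a median of -0.034 that was 0.048 without WT replicate 3, held no gene with an unadjusted p under 0.05. Its leading genes were *Slc35b2*, the transporter of the sulfate donor into the Golgi, at 0.15, and *Slc26a1*, a sulfate transporter, at -0.52. In chain breakdown, 9 of 11 tested genes were above 0, with a median of 0.12. *Arsg*, a lysosomal sulfatase for heparan sulfate, averaged 6.14 ± 0.725 CPM over the WT libraries and 8.96 ± 1.67 CPM over the KO libraries (SD, n = 3 each) without overlap, with a log2 fold change of 0.54 and an edgeR p of 0.0377 before and 0.427 after adjustment. *Ids*, the lysosomal iduronate sulfatase on chromosome X, was at -0.50 with overlapping groups.

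Of the 10 partners and sheddases of syndecans, 6 were above 0, with a median of 0.075 that was 0.0033 without KO replicate 1 and 0.024 with the GC offsets. *Adam10*, a membrane protease that sheds surface proteins, averaged 225 ± 2.02 CPM over the WT libraries and 193 ± 29.0 CPM over the KO libraries (SD, n = 3 each), with overlap and a log2 fold change of -0.23. *Gipc1*, which binds the tails of syndecans, was at 0.10. Neither passed a test.

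**Figure D5:**
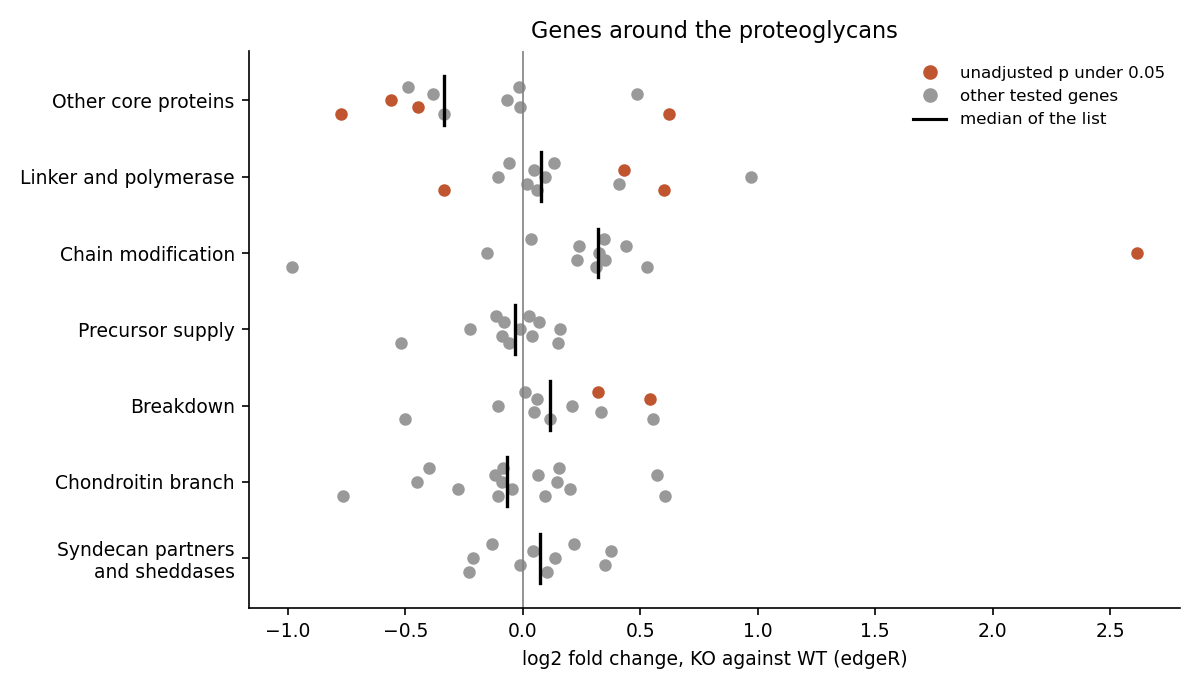
Log2 fold change by edgeR, KO against WT, of each tested gene in 7 lists around the proteoglycans, with 1 point per gene and a bar at the median of each list. Most points lie near 0, other core proteins have a median of -0.34, and chain modification genes have a median of 0.32. The point at 2.62 is *Ndst3*, which passed the filter on low counts only through its KO libraries.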

How the data were processed

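Reads of the 6 SMART-seq and Nextera XT libraries were aligned by the authors to GRCm39 with STAR and counted per gene, and the deposited values are raw counts. Tool versions, gene annotation and strand handling are not given in the sources used here. Groups and replicate numbers came from the labels. The counts were fitted with edgeR 4.0.16 in R 4.3.3 (filterByExpr, TMM, glmQLFit and glmQLFTest, genotype as the only term) over all genes, with Benjamini-Hochberg adjustment over all 16353 tested genes. DESeq2 1.42.0 at its defaults was an alternative. The study itself used DESeq2, and the 606 genes higher and 93 lower in KO found here equal the numbers it reported. The 0 genes called by edgeR thus differ from the published result. The fits were also run on simulated counts with the same spread for every gene, which does not show how they perform on these libraries. Standard errors came from the fold change and its F statistic, and 95% intervals from the t distribution with the residual and prior degrees of freedom, 4 and 3.26.

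The 10 genes and the lists were chosen with earlier results of these data known, so no p over a list is given. Named beyond the 10 were, from each pathway list, genes called by either tool and the gene with the smallest edgeR p in each direction, and *Gpc2* and *Gpc5*. *Hs6st1* and *Hs6st2*, and 3 marker genes, were named after their values were seen. Lengths, 3′UTRs and GC-rich stretches came from GENCODE M21 on GRCm38, another build than that of the counts. The GC offsets were a loess curve (span 0.3) of each library's log2 ratio to the mean of all libraries on the GC of the richest stretch of 200 bases. In all 14 alternatives were planned and 1, sex of the library as a term, was added after seeing the data. Libraries of the same genotype differed from each other by more than sampling noise. *Mir302a* had no mature sequence in the table used.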

Additional observations from a re-analysis of the deposited data

How the results depend on the processing

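The number of genes called among all tested was 0 by edgeR, 699 by DESeq2, 264 without a filter on low counts, 1 with sex of the library as a term (added after seeing the data), and 0 to 217 when single libraries were left out, the 217 without WT replicate 2. Of the 10 genes 0 were called by edgeR, 4 by DESeq2 and 1, *Sdc3*, without the filter, and 0 to 1 without single libraries, the 1 again *Sdc3* without WT replicate 2. For the pathway lists the counts were 0 by edgeR, 1 by DESeq2 and 0 to 1 without single libraries. Replicate numbers did not pair the libraries (correlations of -0.21, 0.25 and 0.078 for numbers 1 to 3), and not every library correlated best with its own number. With a replicate block 0 genes were called, and the log2 fold changes of *Sulf1* and *Gpc4* were -0.25 and 0.10, against 0.24 and -0.037. *Gpc4* was 0.36 with the sex term. Without single libraries *Sulf1* ran from -0.48 to 0.77, *Gpc4* from -0.41 to 0.26, *Gpc6* from -0.23 to 0.065, *Sdc1* from -0.0042 to 0.17 and *Sdc2* from -0.16 to 0.043. With the GC offsets *Fam20b*, *Slc35b2* and *Chpf* were -0.016, -0.056 and -0.073. The cause of these changes was not tested. *Sulf2*, *Gpc1*, *Gpc3*, *Sdc3* and *Sdc4* kept their direction under the 14 alternative settings and the 1 added later. All but *Sdc4* among these did not overlap between genotypes, so leaving out a library could hardly turn their direction. The settings reuse the same libraries and are not independent support. *Sulf1* and *Gpc4* had the widest intervals of the 10 with 3 libraries of each genotype, and smaller differences in them were not detectable.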

Other observations

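The chondroitin sulfate branch, which shares its linker and some core proteins with heparan sulfate, had 16 tested genes, 7 above 0 and 9 below, with a median log2 fold change of -0.065 and no gene at an unadjusted p under 0.05. *Chpf*, a chondroitin polymerising factor, averaged 131.1 ± 14.98 CPM over the WT libraries and 151 ± 8.56 CPM over the KO libraries, and *Dsel*, an epimerase-like enzyme of dermatan sulfate, 7.98 ± 2.45 and 6.07 ± 0.415 CPM (SD, n = 3 each). Both overlapped between genotypes. Without KO replicate 2 the median of the branch was 0.13.

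Of the 84 tested genes in the lists around the proteoglycans, 31, or 36.9%, had their lowest CPM in KO replicate 2, beside 21.6% of all tested genes. Of the 10 genes, *Sulf1*, *Gpc3*, *Gpc6* and *Sdc2* were lowest there. For *Gpc3* the margin was narrow, with 1432 CPM there and 1435 and 1444 CPM in KO replicates 1 and 3. Another 4 of the 10 were lowest in WT replicate 1, beside 15.9% of all tested genes. KO replicate 2 also had the lowest summed CPM of mesenchyme and endothelial markers, and the link was not tested.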
